A study of Saccharomyces cerevisiae with 160 samples.

Results

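Genes that budding yeast represses in glucose were followed here, 10 genes among the 5716 yeast probe sets tested: *PCK1* and *FBP1* of gluconeogenesis, *ICL1* and *MLS1* of the glyoxylate cycle, *ACS1* and *ADH2* of acetate and ethanol use, *CYB2* and *JEN1* of lactate use, the invertase gene *SUC2* and the hexokinase gene *HXK1*. They were taken by name as genes known to be repressed by glucose, with earlier results of these arrays known, and each had 1 probe set. Transcript levels were followed over time in 9 cultures of 5 budding yeast strains of the BF264-15DU background, all *MAT*a, each synchronized in G1 by centrifugal elutriation and then arrested in its cell cycle. The *cdc20* cells (*bar1*, *cdc20*::*LEU2*, GALL-*CDC20*, CFP-*TUB1*, in YEP dextrose with 1 M sorbitol at 30°C) were shifted from galactose to dextrose at time 0, which depletes Cdc20 and stops cells before anaphase (n = 2 cultures). The *cdc8* cells carry only *cdc8*-ts, a temperature-sensitive thymidylate kinase whose loss at 30°C triggers the DNA replication checkpoint, in the same medium and at the same temperature (n = 2). The *cse4* cells (*bar1*, GAL-*cse4-353*, CFP-*TUB1*) overexpress a mutant form of the centromeric histone Cse4 that triggers the spindle assembly checkpoint, and were the only ones kept in galactose (YEP galactose with 1 M sorbitol at 30°C, n = 2). The *cdc8cdc20* strain combines *cdc8*-ts with *bar1*, CFP-*TUB1* and the depletion of Cdc20 (n = 1), and the strain called *rad53* carries *rad53-1*, a mutant allele of the checkpoint kinase, beside *cdc8*-ts, *bar1*, CFP-*TUB1* and the same Cdc20 construct (n = 2). Both were moved to dextrose at time 0 and held at 30°C.

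When glucose is plentiful, budding yeast ferments it and keeps genes for other carbon sources off, mainly through the repressors Mig1 and Mig2 and through inactivity of the kinase Snf1. When glucose runs out, Snf1 becomes active and the activators Adr1, Cat8, Sip4 and Hap4 turn on enzymes that burn ethanol, acetate, lactate and glycerol and that rebuild sugar from them. Galactose is a fermentable sugar that represses these genes far less than glucose does.

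The 160 arrays comprised 14 to 20 per culture. Intensities are linear dChip values, so a level is given as an intensity and a difference on the log2(intensity + 1) scale, and levels of different genes are not set against each other because probes differ in brightness. The arrest level of a culture is its mean log2 value from 200 to 280 min in *cdc20*, 180 to 260 min in *cdc8*, 255 to 330 min in *cse4*, and 198 to 270 min in *cdc8cdc20* and *rad53*, and it is printed as a geometric mean intensity. The start level covers 30 to 80 min, or 90 to 120 min in *cse4*, whose sampling began at 90 min. *CSE4* stood at a geometric mean of 23957 at the arrest of *cse4* cells against 325 to 481 in the other strains, and *BAR1* at 1782 in *cdc8* cells against 79.3 to 150.2 in the other strains. *CDC20* stood at 523 at the start and 438 at the arrest of *cdc20* cells, against 225 and 478 in *cdc8* cells, so that its level does not mark the depleted strains. Of the 5 markers of **a** cells the summed arrest level was 18660 to 52930, with *AGA2* the dimmest at 749.6 in *cse4*. Of the 2 measured markers of alpha cells, *STE3*, the **a**-factor receptor gene, stood between 126 and 216 at the arrest, and *SAG1*, the alpha-agglutinin gene, between 846 and 1936. Of the arrays of *cse4* replicate 1, 3 (at 150, 180 and 270 min) deviated from their neighbours in time by 0.34 to 0.45 on the log2 scale, against a median of 0.13 over all arrays. The array at 165 min, between 2 of them, deviated by 0.44 from these and by 0.12 from those at 135 and 195 min. The early arrays of *cdc20* at 40 and 60 min deviated by 0.33 to 0.42.

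At the arrest the galactose-grown *cse4* cultures stood above all 7 dextrose cultures, with no overlap, for 8 of the 10 genes: *SUC2*, *CYB2*, *ADH2*, *ICL1*, *MLS1*, *FBP1*, *JEN1* and *HXK1*. The same held for 8.52% of all probe sets, and 9.99% lay below all dextrose cultures, where 0 of the 10 genes did. For *HXK1* and *FBP1* the gap was small, and *ACS1* overlapped because *rad53* cells reached higher levels. *PCK1* overlapped as well. Medium and construct change together between *cse4* and every other strain and cannot be told apart, and in bulk RNA fewer expressing cells and less RNA per cell cannot be told apart either.

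**Figure D1:**
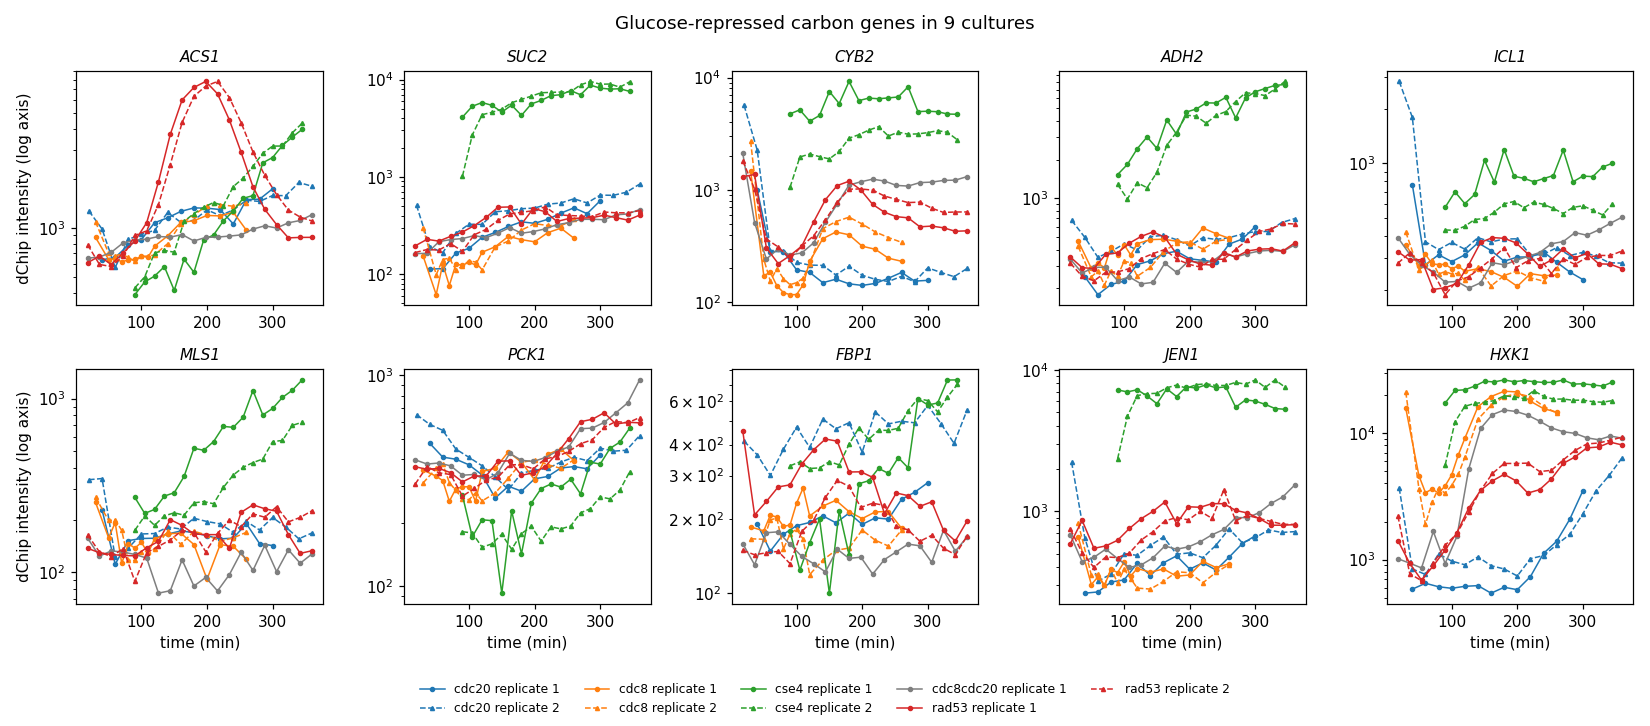
dChip intensity (log axis) of each gene against time in minutes, 1 line per culture, coloured by strain and with solid lines for replicate 1 and dashed lines for replicate 2. The green *cse4* lines lie far above the others for *SUC2*, *CYB2*, *ADH2* and *JEN1*, and the red *rad53* lines of *ACS1* climb to 7796 and 7794 and fall again.

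Differences were tested with limma in 1 fit of all 9 cultures, and a gene was called at a Benjamini-Hochberg adjusted p of at most 0.05 over all 5716 probe sets. In *cse4* minus *cdc20* cells at the arrest, 8 of the 10 genes were called higher and 0 lower, with a median log2 difference of 2.89. Over all probe sets 44.8% were called, 17.7% being higher and 27.1% lower, and the median was -0.14. In *cse4* minus *cdc8* cells 8 were again called higher and 0 lower, with a median of 1.91, while 36.3% of all probe sets were called, 19% as higher and 17.3% as lower, with a median of 0.02. These comparisons share the *cse4* cultures. The cultures of a strain differed most for *CYB2*, *MLS1*, *ICL1* and *PCK1* in *cse4* (SD of 0.45 to 0.63 on the log2 scale, n = 2) and for *FBP1* in *cdc20* (SD of 0.80, n = 2).

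*SUC2* encodes invertase, which splits sucrose outside the cell. Its arrest level was 7923 and 8677 in the *cse4* cultures. In dextrose it was 401 and 533 in *cdc20*, 246 and 321 in *cdc8*, 316 in *cdc8cdc20*, and 399 and 427 in *rad53*. The lowest *cse4* culture was thus far above every dextrose culture. *SUC2* was 17.9-fold higher in *cse4* than in *cdc20* cells (log2 difference 4.16, SE 0.18, adjusted p = 1.27e-05) and 29.4-fold higher than in *cdc8* cells (4.88, SE 0.18, adjusted p = 6.19e-06). The *cse4* cultures started apart, at 4106 in replicate 1 and 1014 in replicate 2 at 90 min, and at 165 min they stood at 5461 and 5779. *SUC2* also rose in dextrose, from start to arrest, by 1.51 (SE 0.25, adjusted p = 0.00128) in *cdc20*, by 1.18 (SE 0.25, adjusted p = 0.00586) in *cdc8* and by 0.99 (SE 0.25, adjusted p = 0.0108) in *rad53*. The call in *cdc8* was lost without either of its cultures (1.12 and 1.25, adjusted p = 0.0727 and 0.0553) and that in *rad53* without replicate 2 (0.79, adjusted p = 0.149). No dextrose array exceeded 841.

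*JEN1* encodes the lactate and pyruvate transporter of the plasma membrane. At the arrest it stood at 5973 and 8024 in *cse4* cells. The dextrose cultures lay between 365 in *cdc8* replicate 2 and 1079 in *rad53* replicate 1, with a lone early value of 2212 in *cdc20* replicate 2 at 20 min. The log2 difference was 3.78 (SE 0.18, adjusted p = 1.73e-05) against *cdc20* and 4.19 (SE 0.18, adjusted p = 1.07e-05) against *cdc8*. Within *cse4* it was the gene without a called change from start to arrest (0.35, SE 0.24, adjusted p = 0.238), and its cultures moved in opposite directions: replicate 1 went from 7124 to 5973 and replicate 2 from 4159 to 8024. In *rad53* it rose by 0.93 (SE 0.24, adjusted p = 0.0119), a call that was lost without replicate 2 (0.75, adjusted p = 0.155), with the last 5 time points as the arrest (0.65, adjusted p = 0.0633) and with the first 3 as the start (0.81, adjusted p = 0.0735). The culture of *cdc8cdc20* climbed late, to 1528 at 360 min.

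*CYB2* encodes the mitochondrial L-lactate dehydrogenase, and its time course divided the dextrose strains. On the first arrays it was high in all of them, at 1001 (40 min) and 5660 (20 min) in *cdc20*, 1471 and 2705 in *cdc8* (30 min), 2112 in *cdc8cdc20* and 1310 and 1812 in *rad53* (18 min). By 60 min *cdc20* was at 282 and 288, and *cdc8* at 184 and 154. In *cdc20* cells it stayed low, between 141 and 226 from 100 min on. In the strains with *cdc8*-ts it rose again from low points between 54 and 90 min. It reached 422 at 160 min and 571 at 180 min in the *cdc8* cultures, 1194 and 1018 in *rad53*, and 1312 at 360 min in *cdc8cdc20*. From start to arrest *CYB2* fell by 1.63 on the log2 scale in *cdc20* (SE 0.17, adjusted p = 0.000138), and in *cdc8* the change was 0.36 (SE 0.17, adjusted p = 0.105, or 0.02 without either *cse4* culture in the fit). The difference between these changes was -1.996 (SE 0.24, adjusted p = 0.000815). At the arrest *CYB2* was higher in *cdc8* than in *cdc20* cells by 1.15 (SE 0.29, adjusted p = 0.014), a call that was lost without *cdc20* replicate 1 (1.14, adjusted p = 0.0645), *cdc20* replicate 2 (1.17, adjusted p = 0.0628) or *cdc8* replicate 2 (0.87, adjusted p = 0.0899).

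The rise of *CYB2* in *rad53* from start to arrest was 0.74 (SE 0.17, adjusted p = 0.00652). With the first 3 time points as the start, which hold the early high values, it was -0.11 (adjusted p = 0.827), and without replicate 2 it was 0.60 (adjusted p = 0.106). In *cse4* cells *CYB2* was highest of all, at 5653 and 3232 at the arrest, above *cdc20* by 4.74 (SE 0.29, adjusted p = 4.84e-05) and above *cdc8* by 3.58 (SE 0.29, adjusted p = 0.000189). Replicate 1 exceeded replicate 2 at every time point, and its highest values, 9240 at 180 min and 8276 at 270 min, came from arrays that deviate from their neighbours. Between *rad53* and *cdc8cdc20* at the arrest the difference was -0.57 (SE 0.36, adjusted p = 0.292, 95% interval from -1.40 to 0.27).

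*ADH2* encodes the alcohol dehydrogenase that oxidizes ethanol, and *ACS1* the acetyl-CoA synthetase used on acetate and ethanol. *ADH2* stood at 6184 and 6088 at the arrest of *cse4* cells and between 333 and 501 in the 7 dextrose cultures, where no array exceeded 697. Its log2 difference was 3.84 (SE 0.14, adjusted p = 6.31e-06) against *cdc20* and 3.69 (SE 0.14, adjusted p = 7.09e-06) against *cdc8*. In *cse4* cells it went from 1529 and 1284 at 90 min to 7655 and 8093 at 345 min, and rose by 2.03 (SE 0.18, adjusted p = 8.88e-05) from start to arrest. In *cdc20* and *cdc8* the rise was 0.54 (SE 0.18, adjusted p = 0.0323) and 0.61 (SE 0.18, adjusted p = 0.0248), and quantile normalization ended both calls (0.36, adjusted p = 0.114, and 0.46, adjusted p = 0.0589). The call in *cdc20* was also lost without its replicate 1 (0.25). That in *cdc8* was lost without its replicate 1 (0.70) or its replicate 2 (0.52). *ADH1*, the fermentative isozyme that makes ethanol, differed by 0.07 (SE 0.10, adjusted p = 0.616) between *cse4* and *cdc20*.

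*ACS1* peaked in *rad53* cells, while no array of the other dextrose strains exceeded 1892. Its lowest, median and highest values were 599, 1187 and 7796 in *rad53* replicate 1 and 582, 1492 and 7794 in replicate 2. The peaks fell at 198 and 216 min, 13.0 and 13.4 times the lowest value, and by 360 min *ACS1* was back at 877 and 1103. In the *cdc8cdc20* culture the same numbers were 655, 884 and 1205, with the highest value at the last time point. Arrest levels were 4126 and 5377 in *rad53* and 907 in *cdc8cdc20*. *ACS1* was therefore 5.19-fold higher in *rad53* (log2 difference 2.37, SE 0.20, adjusted p = 0.000854). The arrest window from 198 to 270 min spans the peak and its decline, and over the last 5 time points the difference was 0.12 (adjusted p = 0.787). The *cdc8cdc20* strain has 1 culture, whose spread was taken to be that of the other strains.

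**Figure D2:**
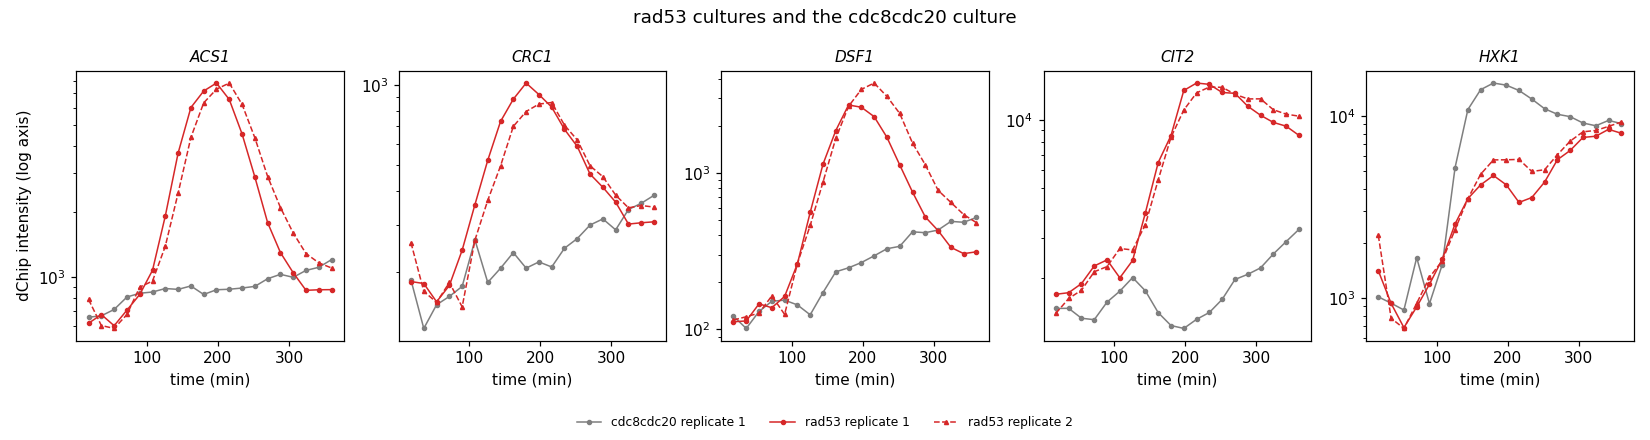
dChip intensity (log axis) against time in minutes of *ACS1*, *CRC1*, *DSF1*, *CIT2* and *HXK1* in the *rad53* cultures (red, replicate 1 solid, replicate 2 dashed) and the *cdc8cdc20* culture (grey). *ACS1* peaked in both *rad53* cultures, at 198 and 216 min, while the *cdc8cdc20* culture stayed between 655 and 1205, and *HXK1* was higher in the *cdc8cdc20* culture than in *rad53* from 126 to 342 min.

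In the other strains *ACS1* changed more slowly. It rose by 0.85 (SE 0.11, adjusted p = 0.000443) from start to arrest in *cdc20*, to 1321 and 1334, and by 0.79 (SE 0.11, adjusted p = 0.000981) in *cdc8*, to 1135 and 1344. At the arrest the difference between these strains was -0.10 (SE 0.17, adjusted p = 0.622, 95% interval from -0.49 to 0.29). In *cse4* cells it began lower, at 393 and 432, and reached 3982 and 4342 on the last arrays, a rise of 2.39 (SE 0.11, adjusted p = 7.55e-06) from start to arrest, or 1.30 to the window from 180 to 260 min. The excess of *cse4* over *cdc20* (0.97, SE 0.17, adjusted p = 0.00368) and over *cdc8* (1.07, SE 0.17, adjusted p = 0.00283) belongs to that late window, and between 180 and 260 min in all strains it was -0.07 (adjusted p = 0.801) and -0.03 (adjusted p = 0.934). *ACS2*, the isozyme used in glucose, differed by -0.28 (SE 0.18, adjusted p = 0.237) between *cse4* and *cdc20* and by -0.25 (SE 0.22, adjusted p = 0.458) between *rad53* and *cdc8cdc20*.

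To see which transcripts ran most like *ACS1* in *rad53* cells, Pearson's r of log2 profiles was taken over the 20 time points of each culture, for the 302 probe sets with a log2 range of at least 2 in both. This ranking was chosen after its values were seen and describes 2 cultures, whose time points are not independent. Among probe sets with a gene symbol the highest r, taking the lower of the cultures, belonged to *DSF1*, a mannitol dehydrogenase-like gene (0.964), *CRC1*, the mitochondrial carnitine carrier (0.956), *DDI1* (0.951), and *HXT17* and *HXT13* of the hexose transporter family (0.948 and 0.944). The probe sets of *DSF1*, *HXT17* and 1 of the 2 of *HXT13* are designs that can match several genes, so these may share signal with near-identical relatives. Within the set r with *ACS1* was taken without the filter on range, which only *CYB2* and *HXK1* of the other members pass. In replicates 1 and 2 it was 0.756 and 0.748 for *JEN1*, 0.676 and 0.750 for *SUC2*, 0.514 and 0.472 for *CYB2*, 0.358 and 0.604 for *HXK1*, and 0.370 and 0.830 for *FBP1*. The lower r of each of the other 4 genes was at most 0.309.

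*ICL1* and *MLS1* encode isocitrate lyase and malate synthase, the enzymes particular to the glyoxylate cycle. Both were dim, within the dimmest 0.2 of probe sets by mean level, and the filter that removes these leaves them untested. At the arrest *ICL1* was at 906 and 554 in *cse4* and between 235 and 333 in dextrose. It was higher in *cse4* than in *cdc20* by 1.18 (SE 0.22, adjusted p = 0.00498) and than in *cdc8* by 1.56 (SE 0.22, adjusted p = 0.00187). The *cdc20* cultures began high, at 2827 in replicate 2 at 20 min and at 763 in replicate 1 at 40 min, and by 60 min stood at 371 and 277. From start to arrest *ICL1* fell by 0.66 (SE 0.12, adjusted p = 0.00179) in *cdc20*. The first arrays of the other dextrose strains, at 18 or 30 min, lay between 283 and 419.

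*MLS1* stood at 941 and 509 at the arrest of *cse4* and between 98.6 and 185 in dextrose. The log2 difference was 1.998 (SE 0.27, adjusted p = 0.00143) against *cdc20* and 2.27 (SE 0.27, adjusted p = 0.00098) against *cdc8*, and between 180 and 260 min it was 1.26 and 1.58. In *cse4* it rose by 1.70 (SE 0.13, adjusted p = 4e-05), to 1282 and 731 at 345 min, while *ICL1* rose there by 0.44 (SE 0.12, adjusted p = 0.0125), a call lost without replicate 1 (0.34, adjusted p = 0.0897). In *rad53* the rise of *MLS1* was 0.48 (SE 0.13, adjusted p = 0.0127), and it was lost without replicate 1 (0.44, adjusted p = 0.113) or replicate 2 (0.52, adjusted p = 0.0832). The mitochondrial relative of *ICL1*, *ICL2*, which encodes methylisocitrate lyase, differed by 0.65 (SE 0.15, adjusted p = 0.0105) between *cse4* and *cdc20* and by 0.02 (SE 0.15, adjusted p = 0.917) between *cse4* and *cdc8*.

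*PCK1* and *FBP1* encode phosphoenolpyruvate carboxykinase and fructose-1,6-bisphosphatase, enzymes that bypass the irreversible steps of glycolysis in gluconeogenesis. *PCK1* was at 376 and 241 at the arrest of *cse4* and between 349 and 447 in dextrose. Its difference from *cdc20* was -0.28 (SE 0.20, adjusted p = 0.29, 95% interval from -0.74 to 0.18). It was -0.59 without *cse4* replicate 1 (adjusted p = 0.00405), 0.04 without replicate 2 (adjusted p = 0.755), and -0.69 between 180 and 260 min (adjusted p = 0.0195). In *cse4* it fell early, to 92.6 at 150 min in replicate 1, on an array that deviates from its neighbours, and to 149.6 at 165 min in replicate 2, and it then rose to 562 and 349. From start to arrest the rise was 0.66 (SE 0.10, adjusted p = 0.000762), and it was 0.19 under quantile normalization (adjusted p = 0.161) and 0.20 with the arrest taken from 180 to 260 min (adjusted p = 0.0763). The highest value of *PCK1* on any array, 953, came from *cdc8cdc20* at 360 min.

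*FBP1* stood at 509 and 564 at the arrest of *cse4*. In *cdc20* it was 216 in replicate 1 and 474 in replicate 2, a gap present from 40 min on, so that the difference of 0.74 from *cdc20* was not called (SE 0.33, adjusted p = 0.108, 95% interval from -0.04 to 1.52). It was 1.30 without *cdc20* replicate 2 (adjusted p = 0.0104). Against *cdc8*, at 205 and 166, *FBP1* was higher by 1.53 (SE 0.33, adjusted p = 0.0108), a call lost without *cdc8* replicate 2 (1.38, adjusted p = 0.0735) or between 180 and 260 min (0.91, adjusted p = 0.119). In *cse4* it rose by 1.25 (SE 0.20, adjusted p = 0.00114), to 731 and 701 at 345 min.

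**Figure D3:**
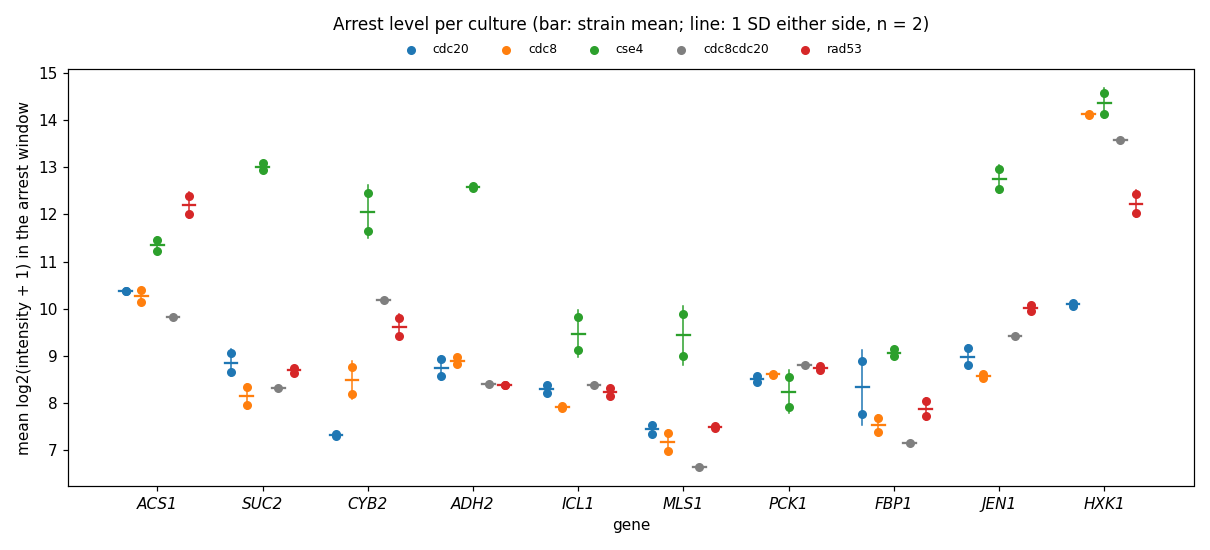
Mean log2(intensity + 1) in the arrest window, 1 point per culture, coloured by strain, with the strain mean as a bar and 1 SD as a line where n = 2. The *cse4* points stand apart for *SUC2*, *ADH2* and *JEN1*, the *cdc20* points are lowest for *CYB2* and *HXK1*, and the *rad53* points are highest for *ACS1*.

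*HXK1* encodes hexokinase isoenzyme 1, which takes over from *HXK2* when glucose is scarce, and it was the gene with the widest range among dextrose strains. Arrest levels were 1068 and 1110 in *cdc20*, 17897 and 17814.5 in *cdc8*, 12333 in *cdc8cdc20*, 4166 and 5523 in *rad53*, and 24612 and 18099.5 in *cse4*. *HXK1* was 16.4-fold higher in *cdc8* than in *cdc20* (log2 difference 4.03, SE 0.19, adjusted p = 1.95e-05) and 19.4-fold higher in *cse4* than in *cdc20* (4.28, SE 0.19, adjusted p = 1.27e-05). Between *cse4* and *cdc8* the difference was 0.24 (SE 0.19, adjusted p = 0.337, 95% interval from -0.19 to 0.67). Over the last 5 time points the excess over *cdc20* was 2.99 in *cdc8* and 3.22 in *cse4*. *HXK1* was lower in *rad53* than in *cdc8cdc20* (log2 difference -1.36, SE 0.23, adjusted p = 0.00679), and over the last 5 time points the difference was -0.22 (adjusted p = 0.759).

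The course of *HXK1* in *cdc8* cells had a dip. It was at 15702 and 21063 at 30 min, fell to 3365 (80 min) and 1895 (60 min), and climbed to 21390 and 20520 at 180 and 200 min. The *cdc8cdc20* culture went from 1015 at 18 min to 859 at 54 min and then to 15198 at 180 min. In *rad53* there was an early fall too, from 1414 and 2209 at 18 min to 688 and 681 at 54 min. These cultures then rose to 8049 and 9286 at 360 min. Replicate 2 of *cdc20* stood at 3667 at 20 min, before the values given next. The *cdc20* cultures stayed between 543 and 1109 from 40 to 220 min and then rose, to 3507 (300 min) and 6404 (360 min). From start to arrest the rise was 1.95 (SE 0.17, adjusted p = 0.000118) in *cdc8* and 2.56 (SE 0.17, adjusted p = 3.19e-05) in *rad53*. In *cdc20* it was 0.55 (SE 0.17, adjusted p = 0.0224), a call lost without replicate 1 (0.31, adjusted p = 0.301), with the arrest from 180 to 260 min (0.28, adjusted p = 0.162) and with the first 3 time points as the start (0.27, adjusted p = 0.393). With the last 5 time points as the arrest it was 1.59 (adjusted p = 7.86e-05). The difference from the change in *cdc8* was -1.39 (SE 0.24, adjusted p = 0.00348), or -0.35 with the last 5 time points as the arrest (adjusted p = 0.23).

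*HXK2*, the main hexokinase in glucose, and *GLK1*, glucokinase, were bright in all strains at the arrest. *HXK2* differed by 0.33 (SE 0.12, adjusted p = 0.0539) between *cdc8* and *cdc20*. *GLK1* differed by 1.24 (SE 0.11, adjusted p = 0.000202) in the same direction as *HXK1*. Between *cdc8* and *cdc20* at the arrest, genes of the general stress response differed in the same direction as *HXK1*. Of 10, 9 were higher and 0 lower (median 2.54), with 52.1% of all probe sets called, 19.1% as higher. *CTT1*, cytosolic catalase, differed by 3.95 (SE 0.41, adjusted p = 0.000359) and *HSP12*, a membrane-associated stress protein, by 3.52 (SE 0.18, adjusted p = 2.44e-05). Within *cdc20* from start to arrest, where *HXK1* rose by 0.55, *HSP12* and *CTT1* changed by -2.70 and -2.09. *TPS1* and *HSP104* changed there by 1.65 and 1.20. The summed arrest level of the 10 stress genes was 104791 to 110168 in *cdc8*, 27592 to 29382 in *cdc20*, 62131 to 75831 in *cse4*, 104279 in *cdc8cdc20* and 62032 to 80539 in *rad53*. The part of the stress genes in the differences of *HXK1* was not tested.

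**Figure D4:**
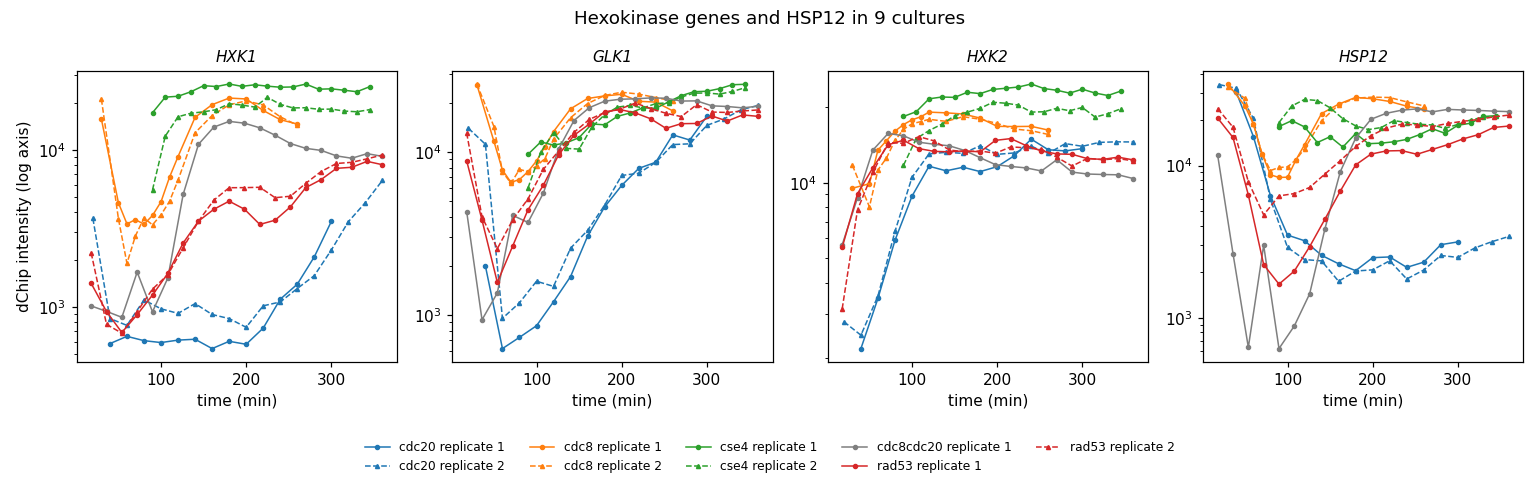
dChip intensity (log axis) of *HXK1*, *GLK1*, *HXK2* and *HSP12* against time in minutes, 1 line per culture, coloured by strain (replicate 1 solid, replicate 2 dashed). From 200 to 260 min *HXK1* and *HSP12* are both lower in *cdc20* cells (blue) than in *cdc8* cells (orange), *HXK1* then climbs in *cdc20*, and *HXK2* is bright in every strain.

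Among the strains in dextrose fewer genes of the set were called than in the comparisons with *cse4*. In *cdc8* minus *cdc20* at the arrest, 2 were higher (*CYB2*, *HXK1*) and 1 lower, with a median of -0.19 (0.06 under quantile normalization), while 52.1% of all probe sets were called, 19.1% as higher and 33% as lower, and the median over all was -0.16. The lower gene was *SUC2* (-0.72, SE 0.18, adjusted p = 0.0138), a call lost without *cdc20* replicate 2 (-0.51, adjusted p = 0.0919) or *cdc8* replicate 1 (-0.53, adjusted p = 0.103). In *rad53* minus *cdc8cdc20*, 1 was higher (*ACS1*) and 1 lower (*HXK1*) where 24.2% of all probe sets were called, 12.6% as higher and 11.7% as lower, and the median of the set was 0.18 against 0.03 over all probe sets. In the fit of all 9 cultures the share of the set called lay below the background share in both comparisons. With only the strains compared in the fit the counts were 5 and 6, against 65.8% and 39.3% of all probe sets. The share in *rad53* minus *cdc8cdc20* lay above the background there. Without either *cse4* culture in the fit the counts were 5 and 4, against 66.5% and 44.8% of all probe sets.

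At the start, 3 genes differed between *cdc20* and *cdc8*, where 48.9% of all probe sets were called, 30.2% as higher in *cdc20* and 18.7% as lower. *HXK1* was lower in *cdc20* (-2.64, SE 0.32, adjusted p = 0.00103). *ICL1* was higher in *cdc20* by 0.74 (SE 0.23, adjusted p = 0.0339) and *PCK1* by 0.58 (SE 0.16, adjusted p = 0.0224). Arrays in the start window began at 40 min in *cdc20* and at 30 min in *cdc8*. Without *cdc20* replicate 2 the differences of *ICL1* and *PCK1* were 0.45 and 0.43, and both calls were lost. They were also lost without *cdc8* replicate 1 (0.76, adjusted p = 0.125, and 0.53, adjusted p = 0.128) and *cdc8* replicate 2 (0.73, adjusted p = 0.129, and 0.62, adjusted p = 0.0833), and *ICL1* without either *rad53* replicate 1 or replicate 2 (adjusted p = 0.0595 for each). *GAL1*, the galactokinase gene, shows the earlier galactose: its start level was 3284 and 3919 in *cdc20*, 286 and 304 in *cdc8*, and 21009 and 11392 in *cse4*.

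From start to arrest, 9 of the 10 genes rose and 0 fell in *cse4*, with a median of 0.96, where 62.7% of all probe sets were called, 29.4% as risen and 33.4% as fallen. In *rad53* 7 rose and 0 fell, with a median of 0.61, where 58.7% were called, 26.4% as risen and 32.3% as fallen. In *cdc8* 5 rose and 0 fell, with a median of 0.33 (3 rose and 2, *ICL1* and *MLS1*, fell under quantile normalization, with a median of 0.11), where 52.1% were called, 26% as risen and 26.1% as fallen. In *cdc20* 4 rose (*ACS1*, *SUC2*, *ADH2*, *HXK1*) and 3 fell (*CYB2*, *ICL1*, *PCK1*), with a median of 0.47, where 63.3% were called, 31.8% as risen and 31.5% as fallen. The median over all probe sets lay between -0.05 and 0.00 in these comparisons. The count in *rad53* was 2 without *rad53* replicate 2, and that in *cdc8* was 2 without either of its replicates and 8 without either *cse4* culture, of which 6 rose and 2 fell. With the first 3 time points as the start, the calls of *ADH2* and *HXK1* in *cdc20*, *ADH2* and *PCK1* in *cdc8*, and *MLS1*, *PCK1*, *JEN1* and *CYB2* in *rad53* were lost. Calls of *CYB2*, *ICL1* and *HXK1* in *cse4* were lost as well, although its first 3 time points are its start window. The *cse4* changes were thus the same, and what differed was the spread of the fit, which is shared over strains. The fall of *PCK1* in *cdc20* was lost without replicate 2 (-0.29, adjusted p = 0.135). The difference between the changes of *cdc20* and *cdc8* was called for 3 genes (*CYB2*, *PCK1*, *HXK1*), all lower in *cdc20*, where 43.6% of all probe sets were called, 21.5% as higher and 22.1% as lower, and without either *cse4* culture for 6, 3 of them (*MLS1*, *FBP1*, *JEN1*) higher in *cdc20*.

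**Figure D5:**
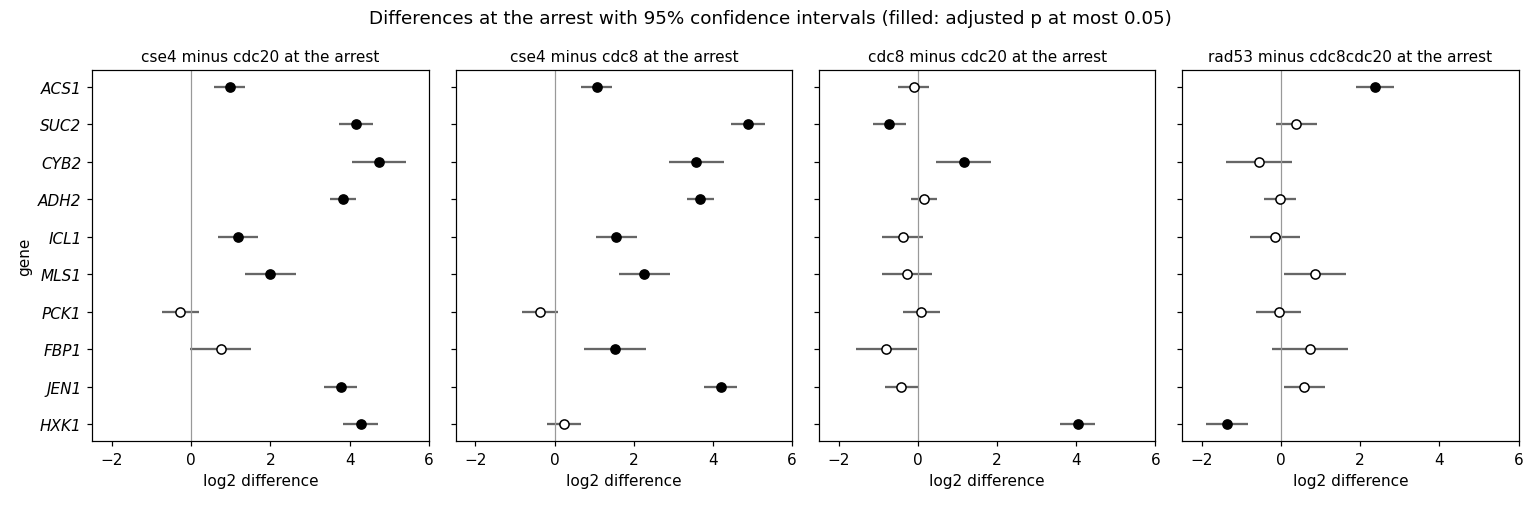
Log2 difference at the arrest of each gene in 4 comparisons, with 95% confidence intervals as lines and filled points for an adjusted p of at most 0.05. In both comparisons with *cse4* 8 points are filled on the right of 0, against 3 filled points in *cdc8* minus *cdc20* and 2 in *rad53* minus *cdc8cdc20*.

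The regulators of these genes were looked up as a list of 23. The share of them called was 65.2% in *cse4* minus *cdc20*, against 44.8% of all probe sets, 56.5% in *cse4* minus *cdc8* (36.3%), 47.8% in *cdc8* minus *cdc20* (52.1%) and 21.7% in *rad53* minus *cdc8cdc20* (24.2%), so that in the last 2 comparisons it was near or under the background. In *cse4* minus *cdc20* at the arrest 9 were higher and 6 lower (median 0.11), and the largest were the activator genes *ADR1* (2.96, SE 0.16, adjusted p = 3.09e-05), *HAP4* (2.26, SE 0.18, adjusted p = 0.000132) and *CAT8* (2.18, SE 0.11, adjusted p = 2.38e-05). *MIG2*, which encodes a repressor that glucose induces, was lower (-2.05, SE 0.12, adjusted p = 4.33e-05), with arrest levels of 250.3 and 243 in *cse4* and 959 to 1847 in dextrose. In *cse4* minus *cdc8*, 8 were higher and 5 lower, with *HAP4* at 3.28 (SE 0.18, adjusted p = 3.5e-05) and *MIG2* at -2.82 (SE 0.12, adjusted p = 1.07e-05). In *cdc8* minus *cdc20*, 7 were higher and 4 lower, and *ADR1* differed by 1.75 (SE 0.16, adjusted p = 0.000212) while *HAP4* differed by -1.02 (SE 0.18, adjusted p = 0.00303). In *rad53* minus *cdc8cdc20*, *HAP4* was the regulator called higher (0.81, SE 0.22, adjusted p = 0.0324) and 4 were lower, *NRG2* by the most (-0.92, SE 0.16, adjusted p = 0.00807).

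Of 32 measured further genes repressed by glucose, the share called was 68.8%, 46.9%, 56.2% and 43.8% in these 4 comparisons, against the same background shares. In the first, 21 were higher and 1 lower in *cse4* than in *cdc20* (median 0.74). Among them were *STL1*, a glycerol importer (6.01, SE 0.16, adjusted p = 1.68e-06), and *GUT2*, the mitochondrial glycerol-3-phosphate dehydrogenase (3.21, SE 0.16, adjusted p = 2.05e-05). In *cse4* minus *cdc8*, 12 were higher and 3 lower (median 0.26), and in *cdc8* minus *cdc20* 15 were higher and 3 lower (median 0.49). In *rad53* minus *cdc8cdc20*, 8 were higher and 6 lower (median -0.12). *CIT2*, the peroxisomal citrate synthase of the glyoxylate cycle, was the highest of these (3.17, SE 0.34, adjusted p = 0.00158), at 13740.3 and 12986 in *rad53* and 1481 in *cdc8cdc20*. *DLD3*, a cytosolic D-lactate dehydrogenase, followed (2.33, SE 0.32, adjusted p = 0.00346), and *CRC1*, which ran like *ACS1*, differed by 1.48 (SE 0.17, adjusted p = 0.00211). *PYK2*, a glucose-repressed pyruvate kinase, was lower (-2.17, SE 0.17, adjusted p = 0.000706).

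Of 19 measured genes of glycolysis and fermentation, 26.3% were called in *cse4* minus *cdc20*, in *cse4* minus *cdc8* and in *rad53* minus *cdc8cdc20*. The share was 52.6% in *cdc8* minus *cdc20*. Taken over both directions, none of these shares lies more than a few percentage points above the background. Of these, 4 were higher and 1 lower in *cse4* than in *cdc20* (median 0.15), and 1 was higher and 4 lower in *cse4* than in *cdc8* (median -0.27). In *cdc8* minus *cdc20* 10 were higher and 0 lower (median 0.37). Over all probe sets 19.1% were called higher there and 33% lower, with a median of -0.16. The 6 genes of galactose use were all higher in *cse4* than in *cdc20* and in *cdc8*, with medians of 5.53 and 6.47. Their summed start level was 41273 in 1 *cse4* culture and 76627 in the other, a gap that runs beside the early gap of *SUC2*, *JEN1* and *HXK1* between these cultures. Its part in those values was not tested.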

How the data were processed

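Each value was a linear intensity of a probe set on an Affymetrix Yeast Genome 2.0 array, which the authors had normalized by invariant set and summarized from perfect-match probes by the dChip method (affy 1.32.1), masking *S. pombe* probes and including arrays of earlier studies not analysed here. Labelling kits varied, and which array had which is not given in the sources used here. The deposited intensities (39.5 to 40037, array medians 1020 to 1284) were kept, and 184 of 5900 probe sets were left out as controls, leaving 5716, of which 5498 had a symbol. The number of cultures per strain limits the precision. Groups came from the labels, and 1 time that the labels give in conflicting ways was taken as 345 min.

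Log2(intensity + 1) was averaged per culture and window and compared in R 4.3.3 with limma 3.58.1 in 1 fit of 9 cultures with 4 residual degrees of freedom. Python 3.11.15 (pandas 2.3.3, numpy 2.4.6, matplotlib 3.10.9) did the rest. On simulated data, limma recovered 80% and 97% of changes of 1 and 2 on the log2 scale for *cse4* minus *cdc20*, 47% and 95% for *rad53* minus *cdc8cdc20* and 98% and 100% for the change in *cdc20*, each among 5716 probe sets. Of its calls there, 5.85%, 6.58% and 4.35% were false, in the same order. Members and lists were chosen with earlier results of these data known. Named genes were all members, up to 4 called genes of largest difference per list and comparison, paralogs, *GAL1*, *GAL7* and genes that check the strains; *DSF1*, *DDI1*, *HXT13* and *HXT17* were named after their values were seen, as was *CRC1* in *rad53* minus *cdc8cdc20*. The lists held 23 regulators, 33 further repressed genes (32 measured), 20 of glycolysis and fermentation (19 measured), 6 of galactose use, 10 of general stress, 5 markers of **a** cells and 4 of alpha cells (2 measured). Alternatives were quantile normalization, a pseudocount of 32, removal of the dimmest 0.2 of probe sets, fits restricted to the compared strains, blocking on replicate number, a robust prior with a trend, other windows and the omission of each culture. Sequences and coordinates were not used here.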

Additional observations from a re-analysis of the deposited data

Results flagged for a closer look

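Of the 10 genes, 3 changed differently from start to arrest in *cdc20* and in *cdc8* cells by the limma test of the difference itself. Over all probe sets 43.6% were called in that test, 21.5% as higher and 22.1% as lower in *cdc20*. The share of the set was thus below the background share. *CYB2* fell in *cdc20*, and its change in *cdc8* was 0.36 (difference -1.996, SE 0.24, adjusted p = 0.000815, n = 2 cultures each). It was lower at the arrest than at the start in both *cdc20* cultures (430.2 to 157 and 572 to 161) and higher in both *cdc8* cultures (240.1 to 291 and 318 to 433). *HXK1* rose less in *cdc20* (difference -1.39, SE 0.24, adjusted p = 0.00348), from 614 to 1068 and from 894 to 1110, against 4946 to 17897 and 4331 to 17814.5 in *cdc8*, and with the last 5 time points as the arrest the difference was -0.35 (adjusted p = 0.23). *PCK1* fell in *cdc20* from 427 to 349 and from 524 to 381, and rose in *cdc8* from 307 to 392 and from 327 to 384 (difference -0.66, SE 0.14, adjusted p = 0.00694). Without *cdc8* replicate 1 the difference of *PCK1* was -0.61 (adjusted p = 0.061). The *cdc20* cells came from galactose, and the *cdc8* cells carry no galactose construct, so arrest and earlier medium cannot be told apart between these strains. The *cdc8cdc20* and *rad53* cells, with the same Cdc20 construct, were also moved to dextrose at time 0. In *cdc8cdc20* (n = 1) *CYB2* went from 333 to 1158, *HXK1* from 1103 to 12333 and *PCK1* from 379 to 447. In *rad53* the changes were 0.74 (-0.11 with the first 3 time points as the start), 2.56 and 0.27. The part of the earlier medium was not tested.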

How the results depend on the processing

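The counts of called genes, of 10, moved by over 1.5 times under these settings. With the dimmest 0.2 of probe sets removed, which leaves *ICL1*, *MLS1*, *PCK1* and *FBP1* untested, they were 5 for *cse4* minus *cdc8*, 5 for the change in *cse4* and 1 for *cdc20* minus *cdc8* at the start. Of all probe sets kept, 37.1%, 62.6% and 50.4% were called, in the same order. With only the strains compared in the fit they were 5 for *cdc8* minus *cdc20*, 6 for *rad53* minus *cdc8cdc20*, 8 for the change in *cdc8* and 7 for the difference in change. There, 65.8%, 39.3%, 73.4% and 58.9% of all probe sets were called, in the same order. With the last 5 time points the count was 0 for *rad53* minus *cdc8cdc20*, where limma called 355 of all probe sets. With the first 3 time points as the start it was 1 for *cdc20* minus *cdc8* at the start and 3 for the change in *rad53*. Of all probe sets 38.8% and 44.1% were called in these.

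When each culture was left out in turn, the counts ran from 8 to 9 for *cse4* minus *cdc20*, 7 to 9 for *cse4* minus *cdc8*, 1 to 5 for *cdc8* minus *cdc20*, 2 to 4 for *rad53* minus *cdc8cdc20*, 1 to 4 at the start, 5 to 9 for the change in *cdc20*, 2 to 8 in *cdc8*, 2 to 8 in *rad53*, 7 to 9 in *cse4*, and 2 to 6 for the difference in change. Lone cultures were assumed to vary like the other strains.

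Signs turned for *ACS1* between 180 and 260 min (-0.075 and -0.027, *cse4* minus *cdc20* and minus *cdc8*) and for *CYB2* with the first 3 time points (-0.20 in *cdc8*, -0.11 in *rad53*). When each culture was left out they also turned for *ACS1* in *cdc8* minus *cdc20* (-0.23 to 0.018, positive without *cdc8* replicate 1), for *PCK1* in *cse4* minus *cdc20* (-0.59 to 0.043, positive without *cse4* replicate 2) and for *JEN1* in the change in *cse4* (-0.25 to 0.95, negative without *cse4* replicate 2). The cause was not tested. Of 1124 values of the 10 genes under the alternatives, 1033 kept direction and side of the threshold, 75 lost the call, 9 gained it and 7 turned.

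Replicate numbers did not pair the samples: same-numbered cultures deviated together with r from -0.28 to 0.21. With the replicate block, *ICL1* at the start was 0.74 (adjusted p = 0.051), and the counts were 2 at the start and 6 for the change in *cdc8*, with the other 8 counts as before. Of all probe sets 47.1% were called at the start and 51.4% for the change in *cdc8*. A further alternative, chosen after seeing the data, left out the 3 deviating *cse4* arrays: the counts with *cse4* stayed at 8, 8 and 9, and *PCK1* lost its call in the change in *cdc8* (adjusted p = 0.0508) and in *rad53* (adjusted p = 0.0562). Without *cdc8cdc20* there is no comparison of *rad53* with it, and the start has no value under other arrest windows. The number of cultures per strain and the dimness of 4 genes limit the precision.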
